A study of Mus musculus with 17 samples.

Results

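Adhesion G protein-coupled receptors were measured in mouse pancreatic β cells that carried or lacked *Pcbp2*, which encodes poly(rC)-binding protein 2, an RNA-binding protein of C-rich sequences. The 10 receptors described here are *Adgrg1*, *Adgrg2*, *Adgrg6*, *Adgrd1*, *Adgrf1*, *Adgrf5*, *Adgrl1*, *Adgrl2*, *Adgrl3* and *Adgra3*, out of 30 adhesion receptor genes and 55357 genes in the files. They were picked by symbol, on measured values, to set family members that were lower in the knockout beside members that were stable, so their knockout differences are given as a description without a test. All 10 passed the filter on low counts, as did 22 of the 30 family genes and 22784 genes in all.

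Islets from male mice were cultured for 3 days in 2.8 mM glucose (low) or 16.7 mM glucose (high), and tdTomato+ β cells were then sorted and sequenced as 17 poly(A) RNA libraries. Before this, by the study's methods, the islets recovered for 3 days at a glucose concentration between the low and the high one. Control β cells, labelled WT, came from tdTomato mice and gave 3 libraries at 2.8 mM and 4 at 16.7 mM. *Pcbp2* βKO β cells came from RIPCre+;Pcbp2Fl/Fl;Tdtomato mice and gave 5 libraries at each concentration. According to the study's methods the control mice also carried RIP-Cre, a rat insulin promoter transgene that drives Cre in β cells, so reporter and Cre were shared by all groups and the floxed allele was not. The age of the mice was not given in the sources used here. The labels do not say that libraries came from separate mice, so p-values measure the spread between these libraries, which may be technical.

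Total estimated counts ranged from 47385513 to 82419400 per library. *Pcbp2* itself, measured in CPM (estimated counts relative to the library total, scaled with TMM factors), was at 50.7 to 73.4 in the control libraries and 15.5 to 19.2 in the *Pcbp2* βKO libraries at 2.8 mM. At 16.7 mM it was at 35.0 to 45.4 and 5.81 to 10. The groups did not overlap at either concentration, and every library was on the side of its genotype label. All 10 markers of β cells were detected, and their summed level was between 67334 and 526064 CPM. On the first principal component, control replicate 4 (score 9.9) and *Pcbp2* βKO replicates 4 and 5 (21.4 and 33.2) at 16.7 mM stood apart from the other libraries at that concentration (90.9 to 99.1).

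Adhesion receptors combine a long extracellular region, which binds matrix or cell-surface ligands, with the seven-pass membrane core of a G protein-coupled receptor. Most cut themselves next to the membrane, and the stub that is exposed when the outer part is pulled off can act as a tethered agonist. In β cells *Adgrg1*, also called GPR56, is among the most abundant G protein-coupled receptors, and the latrophilins *Adgrl1* to *Adgrl3* are better known from synapses, where they hold pre- and postsynaptic membranes together.

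Because PCBP2 binds runs of C, the most C-rich stretch of 18 bases in the 3′ UTR of a receptor's canonical transcript (GENCODE vM39, build GRCm39) was read from the reference, with C in capitals below. The first 3 are from receptors lower in *Pcbp2* βKO cells and the last 2 from stable ones, shown to let a reader compare them.
Adgrg6: CttCCCgttgaCCagCaC
Adgrd1: gCCaCCaCCCaCCCtagC
Adgrf1: tgagCaCCCCCCCaCCCC
Adgrg1: CtCCtCaCCCCCaCCCCC
Adgra3: ttgtCCCCCaCtCCCCCC
These lie at chr10:14296093-14296110 (*Adgrg6*, minus strand), chr5:129280133-129280150 (*Adgrd1*, plus), chr17:43635279-43635296 (*Adgrf1*, plus), chr8:95740564-95740581 (*Adgrg1*, plus) and chr5:50117439-50117456 (*Adgra3*, minus).

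Among the 9 receptors compared here, those called lower in the knockout, by the threshold given below, and those not called lower did not separate by this measure. The richest window held 8 C in *Adgrg6*, a count reached or passed by 92.4% of 15397 genes with a 3′ UTR. *Adgrd1* had 11, the median of all genes, and *Adgrf1* had 12. Of those not called lower, *Adgrg1* had 14 (reached by 12.2% of genes) and *Adgrl1* 13 (22.5%), while *Adgrl3* and *Adgra3* had 12, *Adgrl2* had 11 and *Adgrg2* had 8. A longer UTR offers more windows, and the UTR was 326 bases in *Adgra3* and 800 in *Adgrg6* against 2413 in *Adgrg1*. The searched transcripts were matched to those that held the counts by name only, and their UTRs were not compared. By name, the deposited transcripts above 5% of a gene's counts included the searched ones of *Adgrf1* (100%), *Adgra3* (91.7%), *Adgrg1* (39.4%) and *Adgrd1* (10%). They did not include those of *Adgrg6*, *Adgrg2*, *Adgrl1*, *Adgrl2* and *Adgrl3*. Transcripts of different names may share a UTR. In the reference, the *Adgrg1* transcript with 57.2% of the counts differs from the searched one only in its first exon. A window is a match of letters and says nothing about binding.

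The 4 receptors chosen for being lower in the knockout were *Adgrg6*, *Adgrd1*, *Adgrf1* and *Adgrf5*. The study already names all 4, with links to cAMP, in a cluster of genes lowered by *Pcbp2* deficiency at either concentration. It describes that cluster as not affected by glucose in control cells. Of the 10 receptors these 4 were called lower (adjusted p below 0.05 with more than a 1.5-fold change) at both concentrations, where 1.42% of all genes tested were called lower at 16.7 mM and 1.78% at 2.8 mM, and since the choice used this contrast nothing is read from the count. By size, *Adgrf5* had the smallest difference of the 4 (log2 -1.57 at 2.8 mM and -1.40 at 16.7 mM), and *Adgrl2* had the largest in this direction among those not called (-0.48 and -0.76). Fewer cells of a type and less RNA per cell cannot be told apart in bulk libraries.

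*Adgrg6* (GPR126), a receptor that couples to Gs and is best known for Schwann cell myelination, had the largest difference. At 2.8 mM it was at 2.73, 1.78 and 4.52 CPM in the control libraries and at 0.0335, 0.0469, 0.053, 0.121 and 0.00999 CPM in the *Pcbp2* βKO libraries. At 16.7 mM the control libraries had 2.52, 4.26, 6.87 and 2.17 CPM and the *Pcbp2* βKO libraries 0, 0.0321, 0.0154, 0.134 and 0.0257 CPM. Every control library was above every *Pcbp2* βKO library, and the latter held between 0 and 10 estimated counts each. The fitted log2 difference, knockout minus control, was -5.89 ± 0.67 (SE) at 2.8 mM and -6.46 ± 0.68 at 16.7 mM. Without replicate 4 of the *Pcbp2* βKO cells at 16.7 mM, the one with the most *Adgrg6*, the latter was -7.59.

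*Adgrd1* (GPR133) also couples to Gs and raises cAMP. Its control libraries had 5.17, 2.24 and 6.51 CPM at 2.8 mM and its *Pcbp2* βKO libraries 0.648, 0.387, 0.71, 0.867 and 0.529 CPM. At 16.7 mM they had 2.92, 3.44, 7.43 and 4.15 CPM against 0.975, 0.273, 0.477, 1.1 and 0.437 CPM. The groups did not overlap, but unlike *Adgrg6* the transcript stayed measurable in every *Pcbp2* βKO library, at 17 to 82 estimated counts. The log2 difference was -2.89 ± 0.44 at 2.8 mM and -2.78 ± 0.42 at 16.7 mM.

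*Adgrf1* (GPR110), a receptor of the subfamily that also holds *Adgrf5*, was scarce even in control cells. At 2.8 mM the control libraries had 0.88, 0.348 and 0.635 CPM and the *Pcbp2* βKO libraries 0, 0.0938, 0.0106, 0 and 0.0899 CPM. At 16.7 mM they had 0.613, 1.75, 2.62 and 0.557 CPM against 0.12, 0.161, 0.0924, 0 and 0.0642 CPM. The groups did not overlap, with 27 to 156 estimated counts in control libraries and 0 to 10 in *Pcbp2* βKO libraries. The log2 difference was -3.87 ± 0.86 at 2.8 mM and -3.99 ± 0.80 at 16.7 mM, and it was no longer past the threshold of the call at 16.7 mM without control replicate 3 (-3.48), nor at 2.8 mM without control replicate 1 (-3.54), control replicate 3 (-3.86) or *Pcbp2* βKO replicate 3 (-3.63).

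*Adgrf5* (GPR116), which controls surfactant in the lung and binds surfactant protein D, was the most abundant of the 4. Control libraries had 12.4, 14.2 and 17.6 CPM at 2.8 mM, and *Pcbp2* βKO libraries 4.21, 5.82, 4.6, 3.21 and 6.88 CPM. At 16.7 mM they had 8.49, 19.3, 20.3 and 11.2 CPM against 4.86, 8.93, 3.56, 4.58 and 6.09 CPM. The groups were apart at 2.8 mM and overlapped at 16.7 mM, where 1 *Pcbp2* βKO library (8.93 CPM) was above the lowest control library (8.49 CPM). The log2 difference was -1.57 ± 0.31 at 2.8 mM and -1.40 ± 0.29 at 16.7 mM. At 16.7 mM it was not past the threshold without control replicate 2 (-1.25) or control replicate 3 (-1.21), and at 2.8 mM it was not past it without control replicate 3 (-1.42). *Adgrf1* and *Adgrf5* are neighbours on chromosome 17 of GRCm39, 35.4 kb apart with 0 annotated genes between them.

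The 4 genes also differed between libraries of one group. Control replicate 3 had the highest level of all 4 at 16.7 mM, and at 2.8 mM of *Adgrg6*, *Adgrd1* and *Adgrf5* but not of *Adgrf1*. The highest control library was above the lowest by a factor of 2.53 to 4.70 in *Adgrg6*, *Adgrd1* and *Adgrf1* and of 1.42 to 2.39 in *Adgrf5*. Over the 17 libraries the log2 CPM of *Adgrg6* and *Adgrd1* had a Pearson r of 0.939 and those of *Adgrf1* and *Adgrf5* of 0.909, which include the genotype difference they were chosen for and the depth they share.

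**Figure D1:**
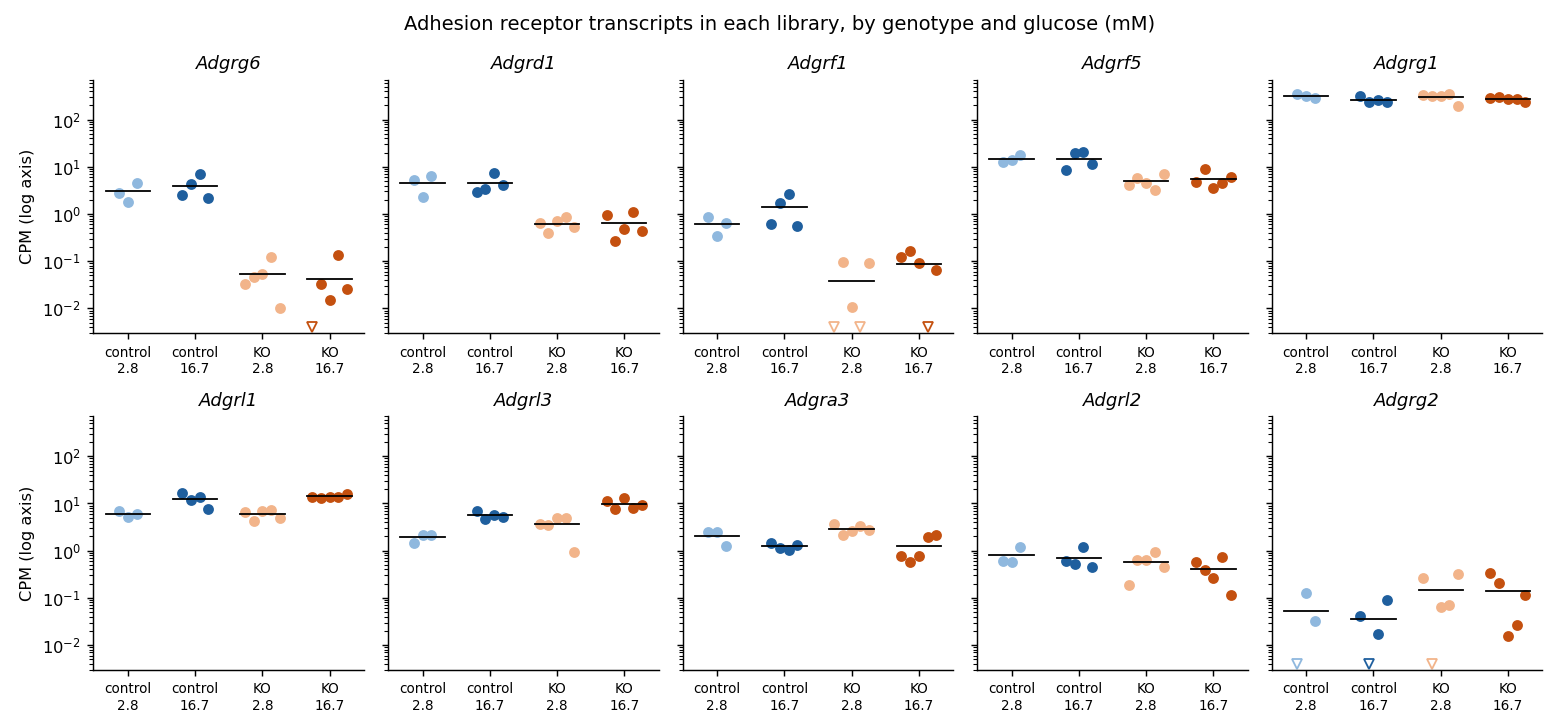
CPM (vertical log axis) of the 10 receptors in each of the 17 libraries (points), by genotype and glucose concentration in mM, with the group mean as a bar and libraries at 0 as open triangles at the foot of the panel. *Adgrg6*, *Adgrd1* and *Adgrf1* were apart between genotypes at both concentrations, whereas *Adgrg1* stayed between 195 and 352 CPM in all libraries.

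Marker lists of other cell types were set beside these differences. The endothelial list, relevant to *Adgrf5*, summed to 0.468 to 1.25 CPM in all libraries, and 3 of its 6 markers (*Cdh5*, *Emcn* and *Plvap*) averaged under 0.1 CPM. The Schwann list, relevant to *Adgrg6*, summed to 97.8 to 115 CPM in control and 84.5 to 113 CPM in *Pcbp2* βKO libraries, of which *Mbp* gave 93.8%, while *Sox10* averaged under 0.1 CPM. The ductal list, of which *Krt7* gave 77.4%, was at 437 to 1202 CPM in control and 408 to 616 CPM in *Pcbp2* βKO libraries at 16.7 mM, and at 494 to 564 and 465 to 580 CPM at 2.8 mM. The stellate or fibroblast list reached at most 5.35 CPM. *Spp1* of the ductal list averaged 328 CPM in control and 55.2 CPM in *Pcbp2* βKO cells at 16.7 mM. At 2.8 mM the δ cell list (481 to 1320 CPM against 251 to 391 CPM) and the PP cell list (1431 to 7425 CPM against 1111 to 1208 CPM) were higher in all *Pcbp2* βKO than in all control libraries, and the β cell list was lower (67334 to 97381 CPM against 119043 to 123222 CPM). *Ins2* gave 64.1% of the β cell list. By group means *Ins1*, *Ins2*, *Iapp*, *Mafa*, *Pdx1*, *Slc2a2* and *G6pc2* were lower in *Pcbp2* βKO cells at 2.8 mM. *Ucn3* (597 against 593 CPM), *Slc30a8* (649 against 580 CPM) and *Nkx6-1* (16 against 15.9 CPM) were not. The α cell list, almost wholly *Gcg* (99.0%), overlapped at 1473 to 9196 CPM against 638 to 2566 CPM. The part of these lists in the receptors' differences was not tested.

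The other 6 receptors were not called in either knockout comparison. *Adgrg1*, a receptor of collagen III, was by far the most abundant of the 10. At 2.8 mM it was at 348, 309 and 282 CPM in control and at 328, 321, 319, 352 and 195 CPM in *Pcbp2* βKO libraries. At 16.7 mM it was at 312, 235, 255 and 238 CPM against 293, 296, 280, 270 and 241 CPM. The groups overlapped, and the log2 difference was -0.05 ± 0.16 (95% interval -0.37 to 0.28) at 2.8 mM and 0.09 ± 0.15 (-0.22 to 0.39) at 16.7 mM.

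The latrophilin *Adgrl1* differed by -0.02 ± 0.22 on the log2 scale at 2.8 mM and by 0.17 ± 0.20 at 16.7 mM. *Adgrl3* was on the other side from the 4 lowered receptors, at 0.91 ± 0.37 and 0.81 ± 0.34, and at 16.7 mM its *Pcbp2* βKO libraries (7.64 to 13.3 CPM) were all above its control libraries (4.63 to 6.85 CPM). At 2.8 mM *Adgrl3* was past the threshold of the call without *Pcbp2* βKO replicate 5 (0.959 CPM), at a log2 difference of 1.16. *Adgrl2*, the scarcest latrophilin, had log2 differences of -0.48 ± 0.53 and -0.76 ± 0.50, and its groups overlapped at 0.58 to 1.19 against 0.19 to 0.954 CPM at 2.8 mM and at 0.455 to 1.19 against 0.116 to 0.723 CPM at 16.7 mM. *Adgra3* (GPR125), a receptor without a known agonist, had differences of 0.47 ± 0.39 and 0.02 ± 0.36. *Adgrg2* (GPR64), known from the epididymis, was near the floor with 0 to 32 estimated counts per library, and its differences of 1.43 ± 1.22 and 1.86 ± 1.19 rest on those few counts.

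Over all 22784 genes tested, 389 were called in the knockout comparison at 16.7 mM and 464 at 2.8 mM. No other family gene was called, among the 12 of the other 20 that passed the filter, and with so few genes nothing is read from this. Their median log2 difference was 0.25 at 2.8 mM and -0.06 at 16.7 mM, beside 0.031 and 0.011 over all genes tested and -0.26 and -0.37 over the 10 receptors. Family genes outside the 10 with a mean of at least 5 CPM were *Celsr3* (13.6 CPM), *Adgrb3* (10.4 CPM) and *Adgrv1* (8.72 CPM).

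Per length, in TPM (transcript abundance as a share of each library's total), the order of the receptors differed between genotypes. In control cells at 2.8 mM *Adgrg1* led with 96.3 ± 6.74 TPM (SD, n = 3), ahead of *Adgrf5* at 2.75 ± 0.691 TPM. *Adgrd1* (0.877 ± 0.455), *Adgrl1* (0.867 ± 0.192), *Adgrl3* (0.801 ± 0.312), *Adgrg6* (0.580 ± 0.203) and *Adgra3* (0.454 ± 0.127) followed, and neighbours among these 5 did not differ beyond their spread. *Adgrl2* (0.168 ± 0.110) and *Adgrf1* (0.153 ± 0.0656) were likewise level, and *Adgrg2* was last at 0.0108 ± 0.0130. In *Pcbp2* βKO cells at 2.8 mM *Adgrg1* again led with 103 ± 29.0 TPM (SD, n = 5), now followed by *Adgrl3* (1.60 ± 0.686), *Adgrf5* (1.02 ± 0.281), *Adgrl1* (0.885 ± 0.357) and *Adgra3* (0.698 ± 0.158), neighbours among which again lay within their spread. *Adgrd1* was at 0.143 ± 0.0432 TPM there, *Adgrg6* at 0.0108 ± 0.00794 TPM and *Adgrf1* at 0.00995 ± 0.0124 TPM.

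At 16.7 mM the β cell marker list, mostly *Ins2*, took more of each control library (272015 to 526064 CPM against 119043 to 123222 CPM at 2.8 mM), and TPM values are shares of a total that includes it. There *Adgrg1* was at 48 ± 6.34 TPM in control (SD, n = 4) and 46.8 ± 4.51 TPM in *Pcbp2* βKO cells (n = 5). *Adgrf5* was next in control cells (1.67 ± 0.690 TPM), level with *Adgrl3* (1.28 ± 0.416 TPM), while *Adgrl3* (1.78 ± 0.231 TPM) was next in *Pcbp2* βKO cells, ahead of *Adgrl1* (0.920 ± 0.164 TPM) and *Adgrf5* (0.571 ± 0.196 TPM) by more than their spread. *Adgrg6* went from 0.372 ± 0.205 TPM in control cells to the last place in *Pcbp2* βKO cells, at 0.00496 ± 0.00709 TPM, beside *Adgrf1* (0.0113 ± 0.00803 TPM) and *Adgrg2* (0.0152 ± 0.0135 TPM).

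The rule that chose the receptors named the knockout and not glucose, so the effect of glucose was tested, first averaged over both genotypes. The choice was nevertheless made with earlier results of these data known. High glucose raised the latrophilins *Adgrl1* and *Adgrl3* and lowered *Adgra3*. Of the 10 receptors 2 were called higher, where 14.6% of all genes tested were, and 1 was called lower, where 11.3% were, shares so near the background that they are no result about the receptors as a group. The median log2 difference of the 10 was 0.05, beside 0.032 over all genes tested.

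*Adgrl1* was at 7.02, 5.29 and 6.01 CPM in control cells at 2.8 mM and at 16.3, 12.1, 13.9 and 7.83 CPM at 16.7 mM. The *Pcbp2* βKO libraries had 6.76, 4.34, 7.09, 7.15 and 4.86 CPM and 13.7, 13.2, 13.5, 13.9 and 16.1 CPM. Every library at high glucose was above every library at low glucose, with control replicate 4 (7.83 CPM) closest to the low-glucose range. Averaged over genotypes it rose by 1.13 ± 0.15 on the log2 scale (adjusted p = 2.03e-05, edgeR quasi-likelihood test with Benjamini-Hochberg adjustment).

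*Adgrl3* rose from 1.45, 2.15 and 2.11 CPM to 6.85, 4.63, 5.76 and 5.26 CPM in control cells. Its rise in *Pcbp2* βKO cells was from 3.67, 3.52, 4.88, 4.93 and 0.959 CPM to 11.3, 7.64, 13.3, 7.92 and 9.26 CPM. The concentrations did not overlap within either genotype. The average log2 difference was 1.51 ± 0.26 (adjusted p = 0.000154, edgeR). Transcripts annotated as protein coding held 66.1% of the *Adgrl3* counts and retained introns 32.0%, the largest retained-intron share of the 10 receptors.

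*Adgra3* had 2.55, 2.45 and 1.27 CPM at low and 1.45, 1.16, 1.02 and 1.32 CPM at high glucose in control cells. In *Pcbp2* βKO cells it had 3.65, 2.11, 2.62, 3.33 and 2.75 CPM at low and 0.787, 0.578, 0.77, 1.98 and 2.13 CPM at high glucose. The concentrations overlapped in both genotypes, and in *Pcbp2* βKO cells replicates 4 and 5 at high glucose, which stood apart on the first principal component, had the highest values of their group. The average log2 difference was -0.98 ± 0.27 (adjusted p = 0.00717, edgeR).

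The remaining 7 receptors did not pass the test of the averaged glucose effect. *Adgrg1* was at -0.20 ± 0.11 (95% interval -0.42 to 0.02), *Adgrg6* at 0.11 ± 0.49, *Adgrd1* at 0.00 ± 0.30 (-0.59 to 0.60) and *Adgrf5* at 0.09 ± 0.22 (-0.34 to 0.53). *Adgrf1* had the largest difference among them, 1.10 ± 0.59 (-0.09 to 2.28, adjusted p = 0.164 by edgeR). *Adgrl2* was at -0.33 ± 0.36 and *Adgrg2* at -0.27 ± 0.83. With libraries scaled by total counts in place of TMM, the median gene shifted from 0.032 to -0.397 and the share of calls that were higher from 56.5% to 19.9%. On that scale *Adgrg1* was called lower as well (-0.64), *Adgrl1* and *Adgrl3* remained higher and *Adgra3* lower.

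The genotypes were then taken one at a time, in comparisons that share their libraries with the knockout comparisons used to choose the receptors. In control cells *Adgrl1* rose by 1.04 ± 0.24 (adjusted p = 0.00721, edgeR) and *Adgrl3* by 1.56 ± 0.40 (adjusted p = 0.0126), 2 receptors of 10 where 7.15% of all genes were called higher. Same-numbered control libraries deviated together, and with the replicate number as a block 2 receptors were again called, while the count over all genes went from 3153 to 5024. In *Pcbp2* βKO cells *Adgrl1* rose by 1.22 ± 0.19 (adjusted p = 0.000152) and *Adgrl3* by 1.46 ± 0.32 (adjusted p = 0.00195), where 13.4% of all genes were called higher. *Adgra3* fell by 1.2 ± 0.34 there (adjusted p = 0.0123, 10.4% of all genes called lower) and was at -0.75 ± 0.41 in control cells (adjusted p = 0.235). The difference between the genotypes' responses is that of the knockout differences and was not tested, and it was 0.18 ± 0.30 for *Adgrl1*, -0.10 ± 0.49 for *Adgrl3* and -0.45 ± 0.53 for *Adgra3*.

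**Figure D2:**
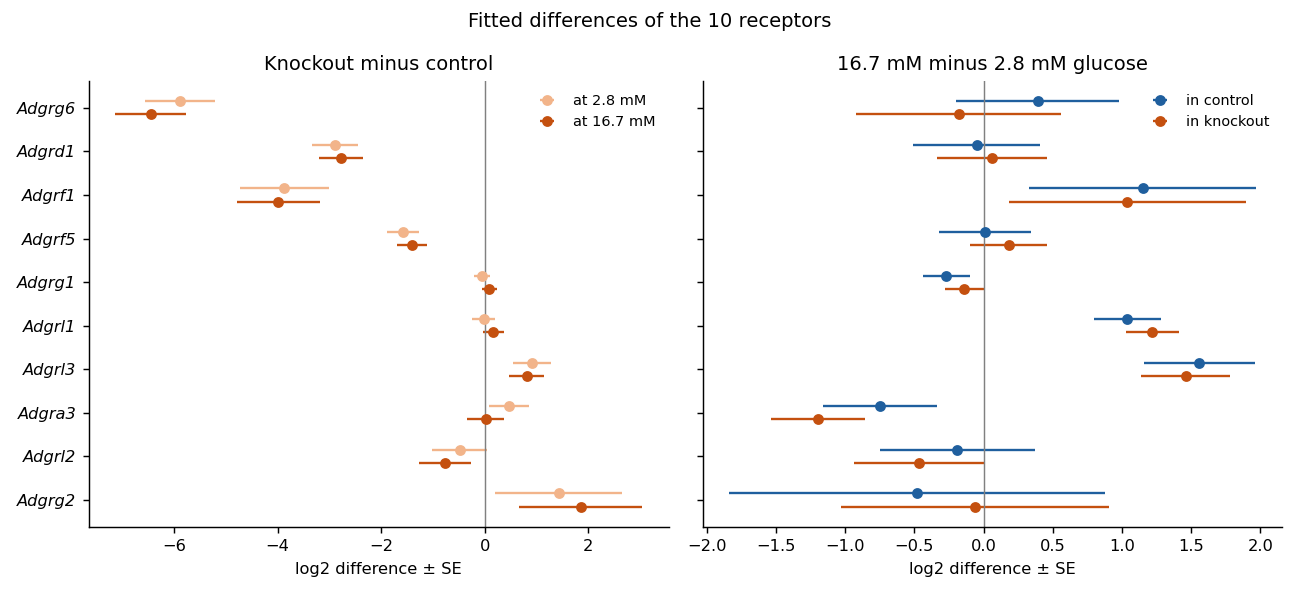
Fitted log2 differences with their SE (horizontal axis) of the 10 receptors, knockout minus control at each glucose concentration (left) and high minus low glucose within each genotype (right). *Adgrg6*, *Adgrd1*, *Adgrf1* and *Adgrf5* were below 0 on the left, and *Adgrl1* and *Adgrl3* were above 0 on the right in both genotypes.

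In the rest of the family 12 of 20 genes were tested, and *Celsr2*, a seven-pass cadherin of planar cell polarity, rose with glucose by 0.88 ± 0.17 on the log2 scale averaged over genotypes (adjusted p = 0.000418, edgeR). *Adgra1* was called higher as well (adjusted p = 0.00874), on 0 to 54 estimated counts per library. *Adgre1*, which encodes the macrophage marker F4/80, fell by 3.22 ± 0.60 (adjusted p = 0.000365). The macrophage marker list, of which *C1qa* gave 52.9%, was at 86.3 to 161 CPM at low and 38.7 to 106 CPM at high glucose in control cells. In *Pcbp2* βKO cells it was at 47.3 to 188 and 21.2 to 111 CPM. There the mean of *C1qa* went up with glucose, from 17.1 to 47.3 CPM. The means of *Lyz2* (89.2 to 4.14 CPM), *C1qb* (9.79 to 0.536), *Cd68* (7.82 to 1.32), *Csf1r* (3.57 to 0.272) and *Ptprc* (1.34 to 0.305) went down. In control cells the means of all 6 markers were lower at high glucose. The part of the list in the difference of *Adgre1* was not tested.

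The use of transcripts within a gene was a further measure that the choice had not used. It was tested in *Adgrg1*, *Adgrf5* and *Adgrl3*, which had at least 2 transcripts above 5% of the gene's counts and at least 50 counts in every library, as the share of the most abundant transcript. *Adgrg1-202* took 54.3%, 51.3% and 52.3% of the *Adgrg1* counts in control cells at low glucose and 66.0%, 65.7%, 54.4% and 53.8% at high glucose. In *Pcbp2* βKO cells it took 51.8%, 53.0%, 48.7%, 55.1% and 55.8% at low and 70.6%, 64.6%, 65.7%, 60.8% and 68.9% at high glucose. All *Pcbp2* βKO libraries at high glucose were above all at low glucose, whereas in control cells replicates 3 and 4 at high glucose stayed at the level of low glucose.

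The mean share went from 52.6% ± 1.53 (SD, n = 3) to 60.0% ± 6.79 (n = 4) in control cells and from 52.9% ± 2.83 (n = 5) to 66.1% ± 3.83 (n = 5) in *Pcbp2* βKO cells. High glucose raised it by 10.3 percentage points on average over genotypes (p = 0.00068, two-sided exact permutation test within genotype, 0.00408 after Benjamini-Hochberg adjustment over 6 tests). The knockout difference was 3.17 points (p = 0.154, exact permutation test within concentration, adjusted 0.376). The gene's total level differed by -0.20 ± 0.11 on the log2 scale, which did not pass the glucose test.

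*Adgrg1-202* (57.2% of counts over all libraries) and *Adgrg1-201* (39.4%) are both protein coding. In GENCODE vM39 both have 14 exons on chromosome 8 of GRCm39 and share 13 of them, with the same coding start at position 95729078. They differ in the first exon, which is at chr8:95703508-95704045 in *Adgrg1-202* and at chr8:95710658-95711285 in *Adgrg1-201*, both in the 5′ UTR. These models have other lengths (5026 and 5116 bases) than those the counts were estimated on (3616 and 3574 bases), so the exons that set the estimates may differ from these. The estimates divide reads of shared exons between the transcripts by a model.

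**Figure D3:**
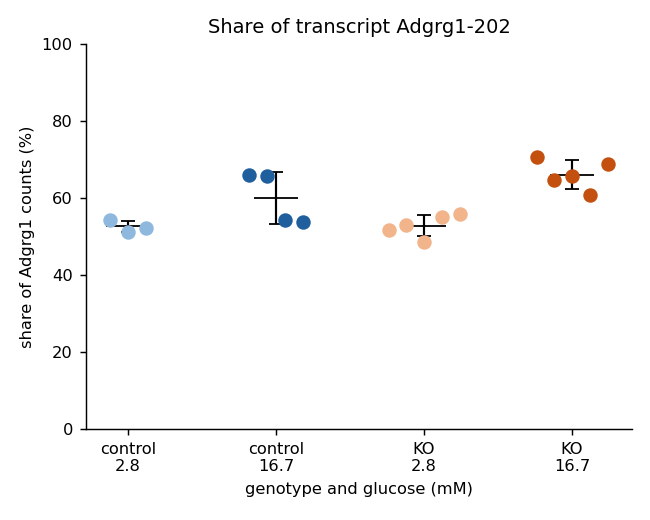
Share of the *Adgrg1* estimated counts assigned to transcript *Adgrg1-202*, in percent (vertical axis from 0 to 100), in each library (points) with group mean and SD (bars), by genotype and glucose concentration in mM. The *Pcbp2* βKO libraries at high glucose sit between 60.8% and 70.6%, above all *Pcbp2* βKO libraries at low glucose (48.7% to 55.8%).

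The shares of *Adgrf5-205* and *Adgrl3-218* passed neither test. For *Adgrf5-205*, at 27.1% to 55.0% of the gene's counts, the glucose difference was -3.74 points and the knockout difference -3.76 points (adjusted p = 0.376 for each, exact permutation test). For *Adgrl3-218* they were -4.44 points (adjusted p = 0.434) and -7.47 points (adjusted p = 0.376), with shares that spread from 0.000288% to 37.8% between libraries.

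Ligands and partners of these receptors were not among the receptors chosen on the knockout contrast, but their list too was drawn up with earlier results of these data known. Of the 22 listed, 21 were tested. Over all genes tested, 1.42% were called lower in the knockout at 16.7 mM and 1.78% at 2.8 mM. *Sftpd*, which encodes surfactant protein D, the ligand of the *Adgrf5* receptor, was the only one of the list called in a knockout comparison. It was at 18.6, 26.1 and 58.0 CPM in control cells at low glucose against 0.168, 0.0821, 0.329, 0.451 and 0.00999 CPM in *Pcbp2* βKO cells. At high glucose it was at 140, 224, 341 and 37.6 CPM against 0.171, 0.273, 0.246, 0.0938 and 0.103 CPM. The genotypes did not overlap, and the *Pcbp2* βKO libraries held 1 to 31 estimated counts each. The log2 difference was -7.44 ± 0.70 at 2.8 mM and -10.05 ± 0.76 at 16.7 mM. The study already lists *Sftpd* among genes altered by *Pcbp2* deficiency, so these differences are given as a description without a test. As with *Adgrg6* and *Adgrf1*, control replicate 3 had the highest and control replicate 4 the lowest value at 16.7 mM. In control cells *Sftpd* rose with glucose by 2.44 ± 0.64 (adjusted p = 0.0147, edgeR), a call lost without control replicates 1 or 2 at 2.8 mM or control replicate 3 at 16.7 mM.

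Averaged over genotypes, 4 of 21 ligands or partners rose and 3 fell with glucose, shares close to the 14.6% and 11.3% of all genes, and the median log2 difference of the list was 0.37, beside 0.032 over all genes tested. Among the latrophilin ligands the teneurins went both ways, with *Tenm3* at 0.79 ± 0.22 (adjusted p = 0.00859, edgeR) and *Tenm4* at -1.44 ± 0.27 (adjusted p = 0.000342). *Flrt3* rose by 2.05 ± 0.71 (adjusted p = 0.0302) and *Flrt1* fell by 0.91 ± 0.33 (adjusted p = 0.0399). *Col4a1*, a collagen IV chain bound by the *Adgrg6* receptor, rose by 1.2 ± 0.25 (adjusted p = 0.00103), in *Pcbp2* βKO cells by 2.04 ± 0.32 from a mean of 6.02 to 24.7 CPM. In control cells alone *Col4a1* was not called, at 0.35 ± 0.38 (adjusted p = 0.594, edgeR). Its control means were 10.2 CPM at low and 13 CPM at high glucose, and the control libraries overlapped between concentrations. *Cd81*, a tetraspanin found in a complex with the *Adgrg1* receptor, fell by 0.67 ± 0.24 (adjusted p = 0.0310). *Col3a1*, the ligand of the *Adgrg1* receptor, averaged 0.123 CPM. *Prnp*, whose product binds the *Adgrg6* receptor, was at 0.58 ± 0.12 averaged over genotypes (adjusted p = 0.000753), under the limit of 1.5-fold, and rose by 0.74 ± 0.15 in *Pcbp2* βKO cells (adjusted p = 0.00114), a call lost with total counts. *Plxdc2*, whose product binds the *Adgrd1* receptor, fell by 1.89 ± 0.60 in *Pcbp2* βKO cells (adjusted p = 0.0225), a call lost without *Pcbp2* βKO replicate 4 at 2.8 mM or replicates 1 or 3 at 16.7 mM.

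All 12 G protein α subunit genes were tested, and none was called in a knockout comparison. Over all 22784 genes tested, 389 were called at 16.7 mM and 464 at 2.8 mM, so nothing is read from this count. *Gnas*, which encodes the Gs subunit that *Adgrg6* and *Adgrd1* use, was at 182 to 239 CPM in control and 225 to 302 CPM in *Pcbp2* βKO cells at 2.8 mM, and at 165 to 323 and 192 to 329 CPM at 16.7 mM. Averaged over genotypes 2 of 12 subunits rose and 2 fell with glucose, near the 14.6% and 11.3% of all genes. *Gnaz* rose by 0.82 ± 0.11 (adjusted p = 2.55e-05, edgeR) and *Gna14*, of the Gq class, by 1.93 ± 0.44 (adjusted p = 0.00206). *Gnai2*, an inhibitory subunit, fell by 0.99 ± 0.18 (adjusted p = 0.000256), and *Gna13*, of the class that the *Adgrg1* receptor couples to, by 0.68 ± 0.09 (adjusted p = 2.05e-05). *Gnaz* and *Gnai2* were called in each genotype taken alone, *Gna14* and *Gna13* in *Pcbp2* βKO cells but not in control cells. The mean of *Gna14* went from 2.42 to 5.11 CPM with glucose in control cells and from 0.498 to 3.47 CPM in *Pcbp2* βKO cells. With total counts in place of TMM the calls for *Celsr2*, *Tenm3*, *Flrt3* and *Gnaz* were lost, those for *Flrt1*, *Flrt3* and *Cd81* were lost without single libraries, and that for *Tenm3* was lost without the 3 libraries apart on the first principal component. Of 24 alternatives, 12 kept the call for *Flrt1*, 17 that for *Flrt3* and 17 that for *Cd81*. The call for *Flrt3* was also lost with protein-coding transcripts alone.

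**Figure D4:**
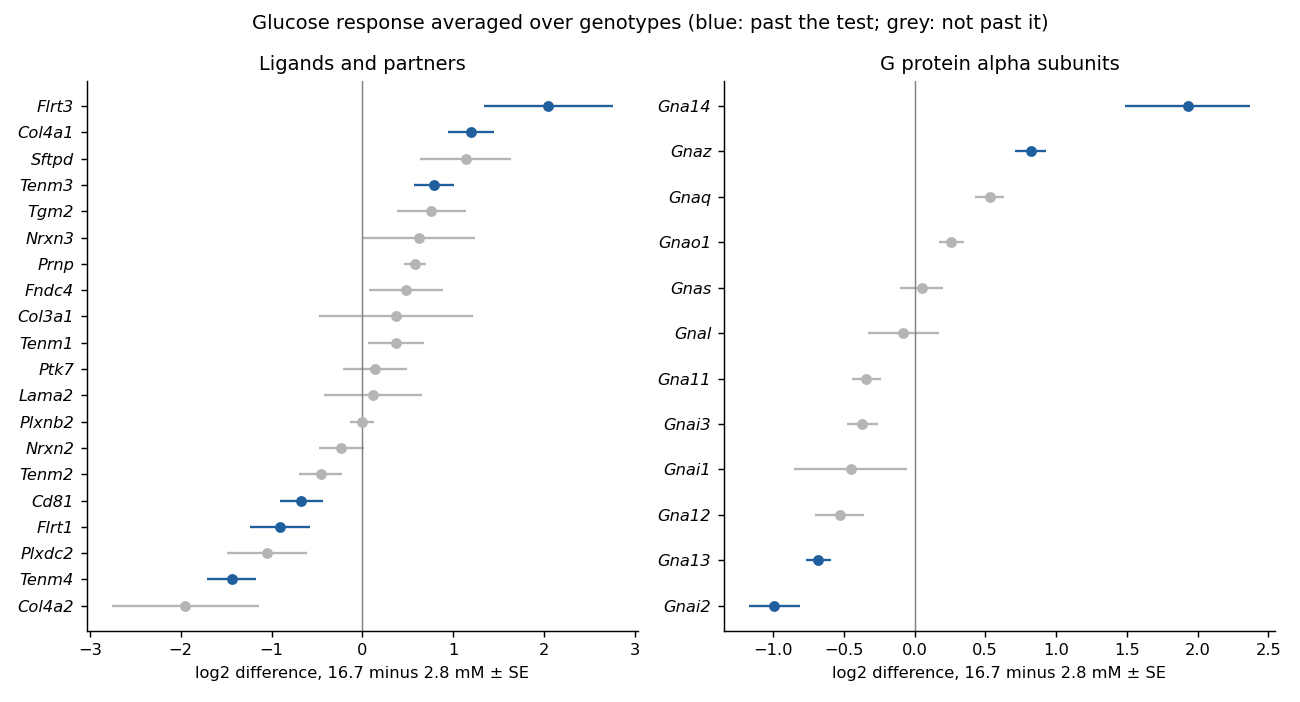
Log2 difference between 16.7 and 2.8 mM glucose averaged over genotypes, with its SE (horizontal axis), of 20 ligands and partners (left) and 12 G protein α subunits (right), in blue where past the test. *Col4a1*, *Flrt3* and *Tenm3* rose and *Cd81*, *Flrt1* and *Tenm4* fell, while among the subunits *Gna14* and *Gnaz* rose and *Gna13* and *Gnai2* fell.

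Genes with a mean of at least 1 CPM whose log2 CPM was most like a receptor's over the 17 libraries are given by Pearson r as a description, since the libraries share genotype, glucose and depth. The closest to *Adgrg6* were *Gbp9* (0.982), *Syt10* (0.980) and *Gm13716* (0.979). *Gm13716* (0.949) was also closest to *Adgrd1*, with *Serinc5* (0.949) and *Lrrc55* (0.946). *Adgrf1* was closest to *Palld* (0.964), *Gpx3* (0.957) and *Plpp3* (0.936), and *Adgrf5* to *Efna5* (0.965), *Pros1* (0.948) and *Plpp3* (0.926), so the neighbours on chromosome 17 had *Plpp3* in common. *Adgrl1* was closest to *Zfhx2* (0.967), *Creb3l2* (0.965) and *Scamp2* (0.965), and *Adgrl3* to *Olfr1322* (0.943), *Ksr2* (0.929) and *Jag2* (0.925). *Adgra3* was closest to *Tmem147os* (0.930), *D630024D03Rik* (0.930) and *Timm8b* (0.929), and *Adgrg1* to *Mpnd* (0.945), *Pck2* (0.851) and *Trpt1* (0.846). The scarce *Adgrl2* and *Adgrg2* had no close match, with *Zfyve27* (0.744), *Mcu* (0.734) and *Tpm1* (0.727) for the former and *Gm50455* (0.693), *Gm47962* (0.684) and *Slc26a1* (0.680) for the latter. *Adgrl1* and *Adgrl3*, which both rose with glucose, had an r of 0.799 with each other.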

How the data were processed

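Poly(A) RNA of sorted tdTomato+ β cells was sequenced from low-input libraries. Per the labels the authors used kallisto and edgeR with build mm39, and deposited 1 table per library with an estimated count and a TPM value for each of 142376 transcripts. The kallisto release and the annotation release were not given in the sources used here. Estimated counts were summed per gene and rounded, and TPM values were summed. Genes were filtered with filterByExpr, scaled with TMM and fitted in one edgeR (4.0.16) quasi-likelihood model with 4 group means over all 17 libraries (R 4.3.3), p-values were adjusted over 22784 genes, and a call needed an adjusted p below 0.05 with more than a 1.5-fold change. The study's own model held a batch factor whose levels were not given in the sources used here, so batch was not fitted. Depth was 47385513 to 82419400 counts per library, and intervals from the fit cover the spread between libraries. Transcript shares were compared with exact permutation tests (Python 3.11.15). The deposited transcript models and GENCODE vM39, used for positions, differ in version.

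The receptors and gene lists were chosen with earlier results of these data known. Named were all 10 receptors, family genes called or at a mean of at least 5 CPM, ligands, partners and G protein subunits that were called, and the 3 genes most correlated with each receptor. Some listed items are not reported here. *Gnas* and *Col3a1* were named in addition, after their values were seen. Same-numbered libraries of the 2 glucose concentrations correlated in their deviations from the group means by 0.123 to 0.258 in all 3 control pairs, above the limit of 0.1 for pairing. In the 5 *Pcbp2* βKO pairs they correlated by 0.0664 to 0.193, not all above that limit. Between genotypes, same-numbered libraries correlated by 0.047 to 0.354 at 16.7 mM and by 0.0474 to 0.244 at 2.8 mM. The main fit and the permutation tests held no term for the number. Only the alternative with a replicate block used it, and there it was used in both genotypes. The labels do not say what a number stands for. Alternatives were DESeq2 (1.42.0), its size factors, total counts, no filter, protein-coding transcripts alone, a replicate block, and leaving out libraries. The code was tested on simulated data.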

Additional observations from a re-analysis of the deposited data

Results flagged for a closer look

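Within groups of 4 or 5 libraries, 39 sets of values (CPM of the 10 receptors and shares of 3 transcripts) were looked at for a library far from the rest, and 4 held one, where chance flags about 1 set in 20. *Adgrg1* was at 195 CPM in replicate 5 of the *Pcbp2* βKO cells at 2.8 mM, against 319 to 352 CPM in the other 4. *Adgrg6* was at 0.134 CPM in replicate 4 of the *Pcbp2* βKO cells at 16.7 mM, against 0 to 0.0321 CPM in the other 4, a difference of a few counts. *Adgrl1* was at 16.1 CPM in replicate 5 of the *Pcbp2* βKO cells at 16.7 mM, against 13.2 to 13.9 CPM. *Adgrf5-205* took 31.2% of the *Adgrf5* counts in replicate 1 of the control cells at 16.7 mM, against 46.0% to 48.9%. No receptor had glucose move all libraries one way in control cells and the opposite way in *Pcbp2* βKO cells.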

How the results depend on the processing

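The number of receptors called for glucose averaged over genotypes (3) and in *Pcbp2* βKO cells (3) stayed within 1.5 times its value under all 24 alternatives. In control cells 1 receptor was called in place of 2 without control replicate 1 at 2.8 mM (*Adgrl3*, adjusted p = 0.0674) or control replicate 2 at 2.8 mM (*Adgrl1*, adjusted p = 0.0515), the range being 1 to 2. The count over all genes there was 3153, from 1382 to 4480 with single libraries left out (1382 without control replicate 2 at 2.8 mM and 1990 without control replicate 1). It was 4837 with total counts, 4898 without the 3 libraries apart on the first principal component and 5024 with the replicate block, and the block moved no other count of genes past 1.5 times and no count of receptors. Under the block 6637 genes were called for glucose averaged over genotypes, against 5891. Over the alternatives *Adgrl1* in control cells had an adjusted p of 0.000353 to 0.0616, the latter with total counts, and *Adgrl3* of 0.000761 to 0.0674. With total counts *Adgrg1* was called in addition for glucose, and without the 3 libraries *Adgrf1* was (adjusted p = 0.0458, range 0.0458 to 0.387). The split of calls into higher and lower with total counts was 16.2% higher in control cells, from 51.7%, and 18.9% in *Pcbp2* βKO cells, from 56.3%, with a median of -0.346 and -0.465. Counts of knockout calls over all genes were 721 at 16.7 mM and 835 at 2.8 mM with DESeq2, against 389 and 464, and 587 at 16.7 mM without the 3 libraries. With single libraries left out they were 213 (without control replicate 3 at 16.7 mM) to 652 (without control replicate 4 at 16.7 mM) at 16.7 mM and 242 (without control replicate 3 at 2.8 mM) to 529 at 2.8 mM. The 6 comparisons of transcript shares kept their side of the threshold under every alternative, with the *Adgrg1-202* glucose difference at 7.17 points on shares of TPM. Knockout differences moved by more than the spread between libraries in 5 of 480 refits, 2 of *Adgrg6* (to -7.59 and -8.00), 2 of *Adgrg2* (to 3.01 and 3.22) and 1 of *Adgra3* (to -0.77). Of the comparisons that called a gene of the other lists, alternatives added after seeing the data kept the call in 789 of 864 refits. The cause of these changes was not tested. *Adgrg2*, and *Adgrg6* and *Adgrf1* in *Pcbp2* βKO cells, were too few in counts for a fold change to be read closely.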
